A study of Homo sapiens with 24 samples.

Results

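The late response of RWPE1 cells to the hormonal form of vitamin D is described here from 8 of the 24 arrays of a time course, the 4 treated and the 4 vehicle arrays of the 48 h time point, chosen by their titles. RWPE1 is a non-tumorigenic human prostate epithelial line that was immortalized with a papillomavirus. The treated cultures received 100 nM 1,25(OH)2D for 48 h and the vehicle cultures received 0.1% ethanol for the same time. All cultures were proliferating at the start of treatment and were grown as 1 line in flasks, and the medium of the 48 h cultures was renewed at 24 h. RNA of each culture was measured on its own whole-genome array, and the values are log2 expression, so that a difference of 1 is a 2-fold difference in signal. Each group held 4 arrays titled as biological replicates.

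1,25(OH)2D binds the vitamin D receptor, a ligand-activated transcription factor that pairs with a retinoid X receptor on DNA. Its best known target in epithelial cells is the enzyme that degrades the hormone itself, which closes a feedback loop. In prostate epithelium the hormone is studied because it slows growth and alters differentiation and inflammatory signalling.

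At 48 h, 1,25(OH)2D raised CYP24A1, which breaks down the hormone, and the tested AKR1C steroid reductases. It lowered 44 of 52 tested interferon-stimulated genes, while genes of squamous epithelium and of the matrix changed in both directions. Of 12010 genes tested, where a gene is read from its brightest probe set, 616 rose (5.13%) and 825 fell (6.87%) by limma's test at an adjusted p under 0.05. Over all 26000 probe sets kept, with or without a gene name, 1043 rose (4.01%) and 1462 fell (5.62%). Most changes were small. In 568 of the 1441 changed genes the change was past 1.5-fold, with 248 higher and 320 lower, and the median size of a called change was 0.49 on the log2 scale. At an unadjusted p under 0.05 there were 3206 genes. In 1434 of the 1441 genes the treated and vehicle arrays did not overlap, as in 2307 of all 12010 genes tested. Beyond 2-fold, 108 genes rose and 127 fell. In 44 called genes the mean of a group was under 3.20, the lowest value kept, where the size of a difference depends on the background correction. Of the genes called, 42.7% rose, and this share was 49.9% after a second quantile normalization and 52.7% after each array was centred on its median, so the predominance of falls depended on the scaling. Without vehicle replicate 2 the count of genes was 953, and without 1,25(OH)2D replicate 3 it was 943.

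**Figure D1:**
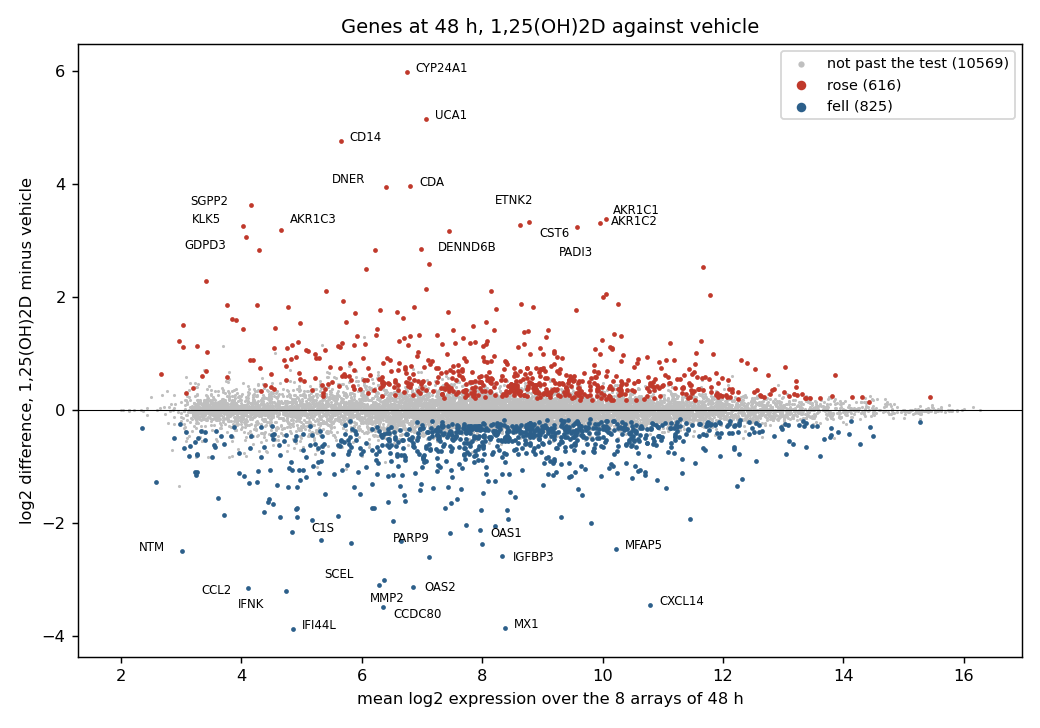
Mean log2 expression over the 8 arrays of 48 h (x axis) against the log2 difference of 1,25(OH)2D minus vehicle (y axis) for 12010 genes, 1 point per gene, with the 616 that rose in red, the 825 that fell in blue and the rest in grey. Named are the 15 largest rises, led by CYP24A1 at 5.99, and the 15 largest falls, led by IFI44L at -3.88.

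The arrays of 48 h were tighter than those of the earlier times. The mean SD of a probe set was 0.161 with 1,25(OH)2D and 0.119 in vehicle at 48 h, against 0.253 to 0.399 in the 4 groups of 6 and 24 h. Within the 48 h groups, 1,25(OH)2D replicate 2 lay farthest from its group, with a root mean square deviation of 0.239, and the other 7 arrays had 0.110 to 0.183. The 3′ minus 5′ signal of the ACTB control was 0.58 to 0.64 with 1,25(OH)2D and 0.61 to 0.82 in vehicle. Of the basal markers (7 tested of 10), KRT5 was at 15.37 ± 0.023 with 1,25(OH)2D and 15.36 ± 0.023 in vehicle (SD, n = 4) and KRT14 at 16.19 and 16.13, and neither passed the test, while KRT15 and ITGB4 of the same list fell, with values given further on. Of the luminal markers, KRT8 was at 13.33 with 1,25(OH)2D and 13.03 in vehicle and KRT18 at 14.47 and 14.50. KLK3, the gene of prostate-specific antigen, was at 3.87 with 1,25(OH)2D and 3.80 in vehicle, close to the lowest value kept (3.20). The immune marker PTPRC was at 3.34 in both groups. Of the stromal markers (6 tested of 11) COL1A1 (-0.60) and VIM (-0.39) fell and 0 rose by limma's test, and LUM was at 3.28 with 1,25(OH)2D and 3.26 in vehicle.

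Known targets of the receptor were among the largest rises at 48 h. CYP24A1, the 24-hydroxylase that degrades 1,25(OH)2D, was at 9.69, 10.10, 9.87 and 9.33 in the 4 arrays with 1,25(OH)2D and at 4.29, 3.56, 3.66 and 3.51 in vehicle. Every treated array lay more than 5 log2 units above every vehicle array, and the fit gave 5.99 ± 0.21 (SE, adjusted p = 4.66e-06). CD14, a co-receptor for bacterial lipopolysaccharide, was at 8.19, 7.64, 8.15 and 8.17 with 1,25(OH)2D, against 3.31, 3.10, 3.28 and 3.41 in vehicle, a difference of 4.76 ± 0.13 (SE, adjusted p = 1.57e-06). Vehicle values of both genes were dim, and the paper reports that both were higher on the arrays than by RT-PCR. CAMP, which encodes the antimicrobial peptide cathelicidin and is a known target of the receptor in human cells, was at 6.18, 4.64, 6.27 and 5.78 with 1,25(OH)2D, whereas all vehicle arrays lay between 2.81 and 2.91. It rose by 2.84 ± 0.33 (SE, adjusted p = 0.00165), and 1,25(OH)2D replicate 2 was the lowest of the treated arrays. TRPV6, an epithelial calcium channel, rose by 0.49 (adjusted p = 0.0203). TRPV6 lost its call without 1,25(OH)2D replicate 4 or vehicle replicate 2, 3 or 4, and the paper marks it as absent on the arrays. DHCR7, which diverts the vitamin's precursor to cholesterol and is named after its value was seen, rose by 0.38. The receptor VDR itself fell, with 10.79 to 11.18 in treated arrays and 11.33 to 11.63 in vehicle (log2 difference -0.53, adjusted p = 0.0142). Its partner RXRA was at 11.17 and 11.26 (adjusted p = 0.814), and CYP27B1, which makes the hormone, at 8.54 with 1,25(OH)2D and 8.24 in vehicle (adjusted p = 0.0736). Of the 13 tested genes of this pathway list (21 members), 5 rose and 2 fell, where 5.13% of all genes rose and 6.87% fell. The second fall was NCOA2, a receptor coactivator. It kept its call without 1,25(OH)2D replicate 1 or 2 and lost it without any 1 of the other 6 arrays.

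Beyond the receptor's pathway, the largest rises were in genes of varied function. UCA1, a long non-coding RNA, was at 9.68, 9.68, 9.74 and 9.50 with 1,25(OH)2D and at 4.32, 4.32, 4.67 and 4.64 in vehicle. Its difference of 5.16 ± 0.10 (SE, adjusted p = 4.76e-07) was a 35.6-fold ratio of mean linear values, with the arrays of each group close together. CDA, cytidine deaminase of the pyrimidine salvage pathway, ranged from 8.17 to 9.37 with 1,25(OH)2D and from 4.67 to 5.23 in vehicle and rose by 3.97. DNER, a transmembrane Notch ligand with EGF repeats, was at 8.40, 8.94, 8.21 and 7.98 with 1,25(OH)2D and at 4.67, 4.37, 4.35 and 4.33 in vehicle, a rise of 3.95. SGPP2, a sphingosine-1-phosphate phosphatase, rose by 3.63, ETNK2, an ethanolamine kinase, by 3.27, and PADI3, which converts arginine residues to citrulline in squamous epithelia, by 3.24. DENND6B (3.17), a regulator of Rab GTPases, and GDPD3 (3.07), a lysophospholipase D, completed the 15 largest. Not all of these genes were equally even among replicates. For KLK5, a serine protease of squamous epithelia, the treated arrays were at 7.43, 3.70, 6.16 and 5.32 and the vehicle arrays at 2.38 to 2.41, so that the rise of 3.26 had an SE of 0.68 (adjusted p = 0.0228). Its lowest treated array was again replicate 2. KLK5 lost its call when 1,25(OH)2D replicate 3 or 4 or any 1 vehicle array was left out.

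**Figure D2:**
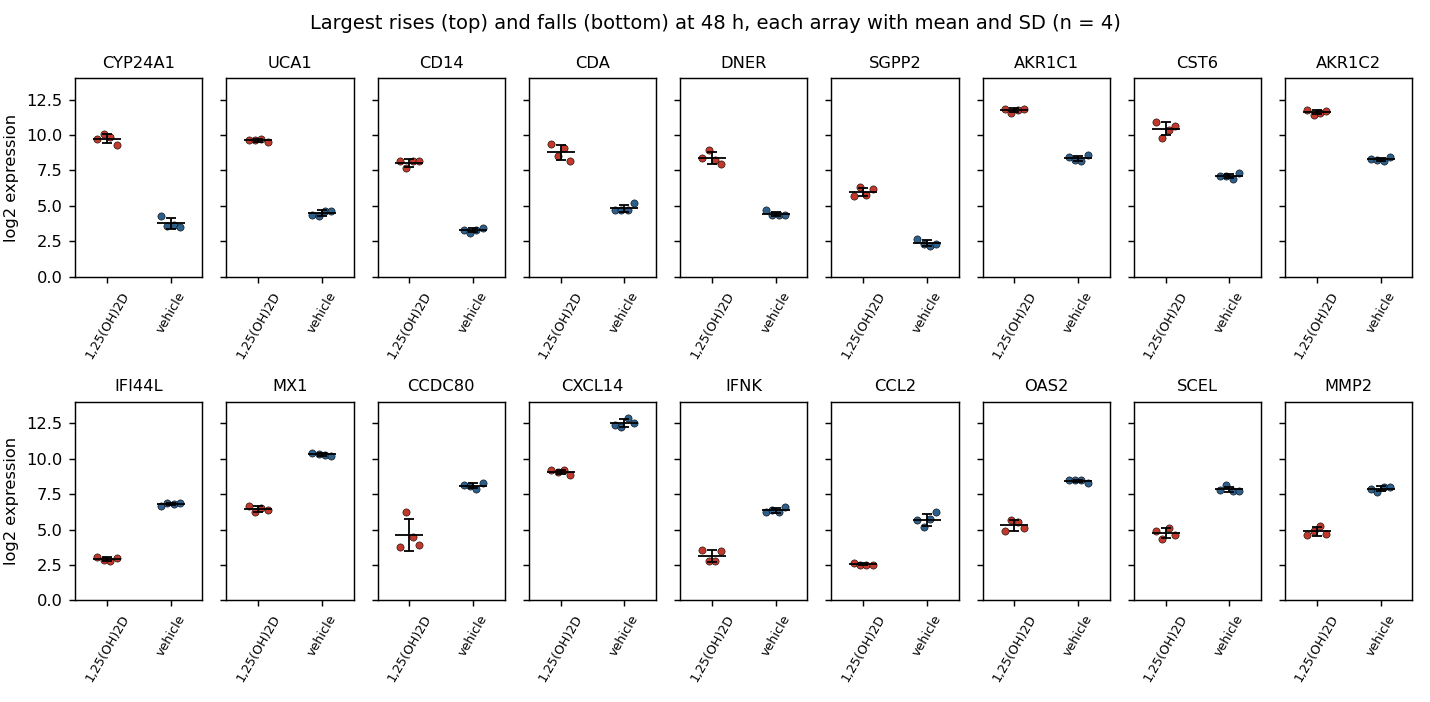
Log2 expression (y axis) of the 9 genes with the largest rises (top row) and the 9 with the largest falls (bottom row) in each array of 48 h, with 1,25(OH)2D in red on the left and vehicle in blue on the right of each panel; bars are the mean and SD of 4 arrays. The genes were taken from called genes whose groups do not overlap, and the spread within a group is widest for CCDC80 with 1,25(OH)2D (SD 1.14).

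The 3 tested members of the aldo-keto reductase family 1C, which reduce ketosteroids and prostaglandins, rose. AKR1C1 was at 11.52 to 11.85 with 1,25(OH)2D and 8.17 to 8.59 in vehicle (3.38 ± 0.11, SE), and AKR1C2 at 11.44 to 11.76 and 8.20 to 8.44 (3.32 ± 0.084). AKR1C3 was at 6.06 to 6.6 with 1,25(OH)2D and at 3.05 to 3.08 in vehicle (3.18 ± 0.11). These genes are near-identical in sequence, so their probe sets can share signal and the values of the single genes are uncertain. Of the other 7 tested members of the list of aldo-keto reductases and steroid reduction (10 tested of 18) 0 passed limma's test. In the list of antioxidant and NRF2 target genes 2 of 27 rose, the secreted glutathione peroxidase GPX3 (0.89, adjusted p = 0.00102) and the thioredoxin reductase TXNRD1 (0.61, adjusted p = 0.0371), and 2 fell, the metallothionein MT2A (-0.21) and the organic anion transporter ABCC3 (-0.48), where 5.13% of all genes rose and 6.87% fell. TXNRD1 lost its call when 1,25(OH)2D replicate 3 or 4 or any 1 vehicle array was left out. Over the alternatives tried, 1 to 5 of the list rose and 0 to 3 fell.

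Of the gene lists examined, the interferon-stimulated genes had the lowest median difference. Interferons secreted by infected or stressed cells act through JAK kinases and a transcription factor complex that includes IRF9, and this complex binds a short element in the promoters of many antiviral genes. Of the 52 tested genes of this list (57 members), 44 fell and 0 rose at 48 h, where 6.87% of all genes fell. In each of the 44 the treated and vehicle arrays did not overlap, as in 2307 of the 12010 genes, and 30 fell by more than 1 log2 unit. The median difference of the 52 was -1.11, against -0.0091 over all genes. The median level of the list was 6.34, 6.29, 6.54 and 6.43 in the 4 arrays with 1,25(OH)2D and 7.93, 7.96, 7.80 and 7.96 in vehicle. The 8 members that did not pass included PML (-0.30, adjusted p = 0.206), the scaffold of nuclear bodies, and TYMP (0.29, adjusted p = 0.267), a thymidine phosphorylase and the only one with a higher mean in treated cells.

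The largest falls of the list were in antiviral effectors. MX1, a GTPase that traps viral ribonucleoproteins, was at 6.70, 6.23, 6.5 and 6.38 with 1,25(OH)2D and at 10.39, 10.34, 10.29 and 10.21 in vehicle. The difference of -3.85 ± 0.098 (SE, adjusted p = 9.44e-07) was a 14.4-fold lower mean linear value. IFI44L was at 3.08, 2.84, 2.78 and 2.99 with 1,25(OH)2D, under the lowest value kept (3.20), and at 6.66, 6.85, 6.82 and 6.85 in vehicle (-3.88 ± 0.078, adjusted p = 4.76e-07). OAS2, an oligoadenylate synthetase that senses double-stranded RNA, was at 4.88, 5.68, 5.51 and 5.09 with 1,25(OH)2D and at 8.47, 8.48, 8.48 and 8.30 in vehicle (-3.14 ± 0.17), and its paralog OAS1 fell by 2.38 on the log2 scale. PARP9, an ADP-ribosyltransferase that works with the ubiquitin ligase DTX3L in interferon signalling, fell by 2.60 on the log2 scale, and DTX3L, named after its values were seen, fell by 1.33. Further members, also named after their values were seen because their promoters are shown next, were EPSTI1 (-2.31 ± 0.14), IFIT1 (-2.06 ± 0.093), BST2 (-1.96 ± 0.088), DDX60 (-1.73 ± 0.18), IFI27 (-1.5 ± 0.17) and the ubiquitin-like modifier ISG15 (-1.23 ± 0.11). BST2, or tetherin, holds budding virus at the cell surface, and IFIT1 binds viral RNA that lacks the host cap.

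Most promoters of the list hold the letters of the interferon-stimulated response element. The core GAAANNGAAA was searched on both strands in windows of 300 bases, 250 before and 50 after the start of each gene, from RefSeq on GRCh38.p14. It lay in 30 of the 42 windows found for tested members of the list (71.4%), in 26 of the 36 for members that fell and in 4 of the 6 for members that did not pass. It was present in 3.65% of all 27305 windows and in 2.75% of the 9851 windows of tested genes. Among genes that fell it lay in 52 of 663 windows (7.84%), and 26 of these 52 are the list members already counted. Among genes that rose it lay in 1.39% of 505 windows. A match describes the letters only. The stretches around the matches are printed here for 7 genes of the list that fell, because the core lay in most windows of the list, whether or not the gene passed the test. Each is written 5′ to 3′ in the direction of the gene, with the core or its reverse complement in capitals.
IFI44L (chr1:78620264-78620404, plus strand): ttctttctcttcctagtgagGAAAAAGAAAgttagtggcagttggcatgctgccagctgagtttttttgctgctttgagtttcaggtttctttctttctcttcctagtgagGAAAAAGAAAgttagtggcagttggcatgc
ISG15 (chr1:1013364-1013419, plus strand): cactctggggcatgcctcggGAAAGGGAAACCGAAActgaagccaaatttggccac
IFIT1 (chr10:89392487-89392549, plus strand): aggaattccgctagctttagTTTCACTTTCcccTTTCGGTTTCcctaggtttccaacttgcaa
IFI27 (chr14:94110608-94110670, plus strand): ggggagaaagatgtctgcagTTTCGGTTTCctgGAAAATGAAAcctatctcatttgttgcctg
BST2 (chr19:17405725-17405780, minus strand): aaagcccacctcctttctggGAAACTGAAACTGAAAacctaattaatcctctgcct
EPSTI1 (chr13:42992262-42992311, minus strand): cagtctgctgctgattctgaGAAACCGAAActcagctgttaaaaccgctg
DDX60 (chr4:168318776-168318860, minus strand): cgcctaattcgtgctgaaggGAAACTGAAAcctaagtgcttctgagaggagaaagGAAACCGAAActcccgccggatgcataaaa

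All 7 stretches lie before the start of the gene. In IFI44L the same stretch with its core occurs 2 times, with the core beginning 164 and 73 bases before the start, and in ISG15 and BST2 overlapping cores begin 113 and 107, and 130 and 124, bases before it. In IFIT1 the cores lie on the opposite strand at 116 and 103 bases. In EPSTI1 a single core begins 50 bases before the start, and in DDX60 cores begin 88 and 53 bases before it. The vitamin D response element known as DR3, a direct repeat with a spacer of 3 bases, was searched in the same windows and was found in 0.0769% of them, in 0 of the windows of genes that rose (505) and in 0 of those of genes that fell (663). It lay in only 8 of the 9851 windows of tested genes, so counts of 0 cannot tell the changed genes from the rest. Elements outside these windows were not searched.

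In 9 of the 24 lists plotted here, cell type markers left out, genes fell and 0 rose by limma's test, and in these at most 1 gene of a list was higher at an unadjusted p under 0.05 and 0 rose by SAM, a permutation-based method described with the processing.

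**Figure D3:**
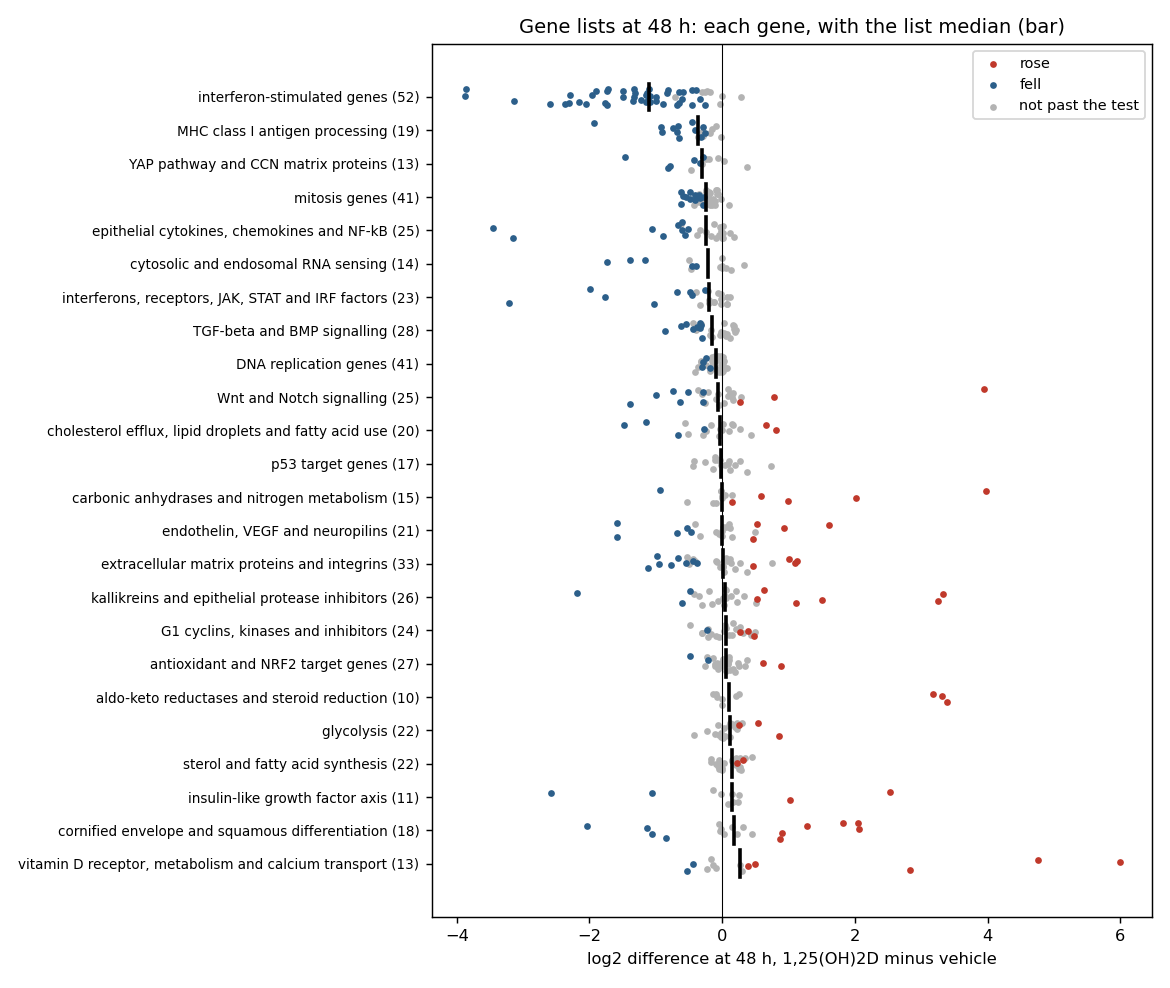
Log2 difference at 48 h, 1,25(OH)2D minus vehicle (x axis), of each tested gene in 24 gene lists (rows, with the number tested), in red for genes that rose, blue for genes that fell and grey for those not past the test; black bars are list medians. The interferon-stimulated genes lie farthest to the left, with a median of -1.11 and 44 of 52 in blue.

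Genes that act upstream of these effectors were also measured. Of 23 tested interferons, receptors, JAK, STAT and IRF factors (30 members) 8 fell, where 6.87% of all genes did, and 0 rose. IFNK, a type I interferon of keratinocytes, was at 3.58, 2.75, 2.78 and 3.45 with 1,25(OH)2D and at 6.21, 6.38, 6.23 and 6.61 in vehicle (-3.21 ± 0.21, SE, adjusted p = 9.38e-05). IRF9, the DNA-binding subunit of the interferon-activated complex, was at 9.01, 8.53, 8.76 and 8.91 with 1,25(OH)2D and at 10.86, 10.85, 10.84 and 10.65 in vehicle (-2.0 ± 0.11). IRF7, which amplifies type I interferon production, fell by 1.76 on the log2 scale and NMI, a partner of STAT proteins, fell by 1.03. The following did not pass. JAK1 was at 9.19 with 1,25(OH)2D and 9.53 in vehicle (adjusted p = 0.139), STAT3 at 10.79 and 11.19 (adjusted p = 0.0675) and the receptor chain IFNGR2 at 11.04 and 11.23 (adjusted p = 0.211).

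Among 14 tested genes of RNA and DNA sensing (17 members) 5 fell and 0 rose, where 6.87% of all genes fell, and 3 fell without 1,25(OH)2D replicate 1 or 4 or vehicle replicate 4. They included the cytosolic RNA sensors IFIH1 (-1.74 ± 0.064) and RIGI (-1.17 ± 0.17), the adaptor of DNA sensing STING1 (-1.40 ± 0.080) and the RNA-editing enzyme ADAR (-0.45 ± 0.11), while the downstream adaptor MAVS was at 9.88 and 9.91 (adjusted p = 0.901). Of 19 tested genes of MHC class I antigen processing (22 members), 12 fell and 0 rose, and all 19 were lower in treated cells, with a median of -0.37. The immunoproteasome subunit PSMB9 was the farthest, at 7.47 ± 0.385 with 1,25(OH)2D and 9.40 ± 0.131 in vehicle (SD, n = 4), followed by the peptide-trimming peptidases ERAP2 (-0.92) and ERAP1 (-0.91) and by TAPBPL (-0.73), a chaperone of peptide loading. PDIA3 and CANX, general chaperones of the endoplasmic reticulum in the same list, were at 13.23 and 12.84 with 1,25(OH)2D and 13.42 and 12.87 in vehicle, and neither passed. HLA genes share sequence, and no value of a single HLA gene is given.

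Of 25 tested cytokine, chemokine and NF-kB genes (35 members) 9 fell, where 6.87% of all genes did, and 0 rose. CXCL14, a chemokine that epithelia secrete constitutively, was at 9.18, 9.03, 9.18 and 8.85 with 1,25(OH)2D and at 12.42, 12.22, 12.88 and 12.54 in vehicle (-3.45 ± 0.14, SE, adjusted p = 9.30e-06). The mean linear value was 11.1-fold lower. CCL2, which recruits monocytes, was at 2.49 to 2.65 with 1,25(OH)2D, under the lowest value kept (3.20), and at 5.18 to 6.22 in vehicle (-3.15 ± 0.19). IL6 fell by 1.06 on the log2 scale and CASP1, the protease that matures interleukin 1, by 0.90. IL6 lost its call without vehicle replicate 1 or 4. NFKBIA, the inhibitor of NF-kB, was at 11.03 in both groups (adjusted p = 0.988), and IL18 differed by -0.10 (adjusted p = 0.450).

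Genes of the extracellular matrix changed in both directions. MMP2, a gelatinase that degrades basement membrane collagen, was at 4.64, 4.87, 5.28 and 4.66 with 1,25(OH)2D and at 7.88, 7.65, 7.98 and 8.02 in vehicle (-3.02 ± 0.15). MFAP5, a microfibril protein, was at 8.87 to 9.12 with 1,25(OH)2D and 11.34 to 11.57 in vehicle (-2.46 ± 0.071), a 5.50-fold lower mean linear value with little spread. CCDC80, another secreted matrix protein, was at 3.78, 6.25, 4.50 and 3.91 with 1,25(OH)2D and at 7.87 to 8.27 in vehicle (-3.48 ± 0.50), and here too replicate 2 was the treated array closest to vehicle. NTM, a neural adhesion molecule, was at 1.77 with 1,25(OH)2D, under the lowest value kept (3.20), and at 4.27 in vehicle. C1S, a protease of the complement cascade, was at 4.64 with 1,25(OH)2D and 7.0 in vehicle, and both genes fell. Of the 33 tested matrix proteins and integrins (42 members) 8 fell and 4 rose, where 6.87% of all genes fell and 5.13% rose. The falls were led by fibronectin, FN1 (-1.12 ± 0.14), COL8A1 (-0.99), ITGAV (-0.95) and COL5A1 (-0.78). The rises were the basement membrane proteoglycan HSPG2 (1.14 ± 0.14), the collagen crosslinking enzyme LOX (1.09 ± 0.068), COL16A1 (1.00) and the laminin chain LAMB3 (0.47). Of 13 tested genes of the YAP pathway and CCN proteins (17 members) 6 fell, where 6.87% of all genes did, and 0 rose. These falls were led by CCN2, or connective tissue growth factor (-1.47 ± 0.13), CCN1 (-0.81 ± 0.044) and the receptor kinase AXL (-0.78). Without 1,25(OH)2D replicate 4 or vehicle replicate 2, 3 fell. In TGF-beta and BMP signalling 9 of 28 tested genes fell, where 6.87% of all genes did, and 0 rose. Most of these falls were small, with FST, which sequesters activin, at -0.86, SMAD6 at -0.62 and the ligand TGFB2 at -0.44. The count of falls was 4 without 1,25(OH)2D replicate 1 or 3, and 5 without 1,25(OH)2D replicate 4 or vehicle replicate 1, 2 or 4. SMAD6 lost its call when any 1 array other than vehicle replicate 2 was left out.

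Angiogenic and growth factor genes were split. EDN1, the vasoconstrictor endothelin 1, was at 6.64, 7.27, 6.77 and 6.53 with 1,25(OH)2D and at 8.30, 8.30, 8.39 and 8.53 in vehicle (-1.58 ± 0.15, SE). KDR, a VEGF receptor, was lower by the same amount but less evenly (SE 0.36, adjusted p = 0.0313), and VEGFC fell by 0.68 on the log2 scale. KDR averaged 3.7 with 1,25(OH)2D, near the lowest value kept (3.20). It lost its call when any 1 array other than 1,25(OH)2D replicate 2 or vehicle replicate 4 was left out. SEMA6D (1.61), SEMA3C (0.93) and SEMA3F (0.47), semaphorins that signal through plexins, rose, as did HIF1A (0.53). VEGFA was at 10.80 with 1,25(OH)2D and 10.69 in vehicle (adjusted p = 0.675). Binding proteins of insulin-like growth factors went opposite ways. IGFBP6, which prefers IGF2, was at 13.21, 12.63, 13.00 and 12.92 with 1,25(OH)2D and at 10.38, 10.42, 10.38 and 10.46 in vehicle (2.53 ± 0.11), and IGFBP2 rose by 1.02. IGFBP3 was at 6.92, 7.38, 6.66 and 7.21 with 1,25(OH)2D and at 9.60, 9.64, 9.80 and 9.46 in vehicle (-2.58 ± 0.16), and IGFBP4 fell by 1.05 on the log2 scale. IGFBP7 was at 13.31 with 1,25(OH)2D and 13.32 in vehicle.

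Genes of squamous differentiation were among both the rises and the falls. Of 18 tested members (39 in the list) 6 rose and 4 fell, where 5.13% of all genes rose and 6.87% fell. CALML3, a calmodulin-like protein of stratified epithelia, rose by 2.06 ± 0.12 (SE), and KRT16, a keratin of activated keratinocytes, was at 12.41 to 13.11 with 1,25(OH)2D and 10.51 to 11.12 in vehicle (2.04 ± 0.17). The cornified envelope precursors SPRR1B (1.82) and SPRR1A (1.27) rose. In contrast TGM1 (-1.06) and TGM2 (-1.14), transglutaminases, S100A8 (-2.03) and S100A9 (-0.85), the subunits of calprotectin, and SCEL, a precursor of the cornified envelope (-3.11 ± 0.17), fell. S100A9 lost its call when any 1 array other than vehicle replicate 2 or 4 was left out. SCEL is not in the list of 18 and is named as 1 of the 15 largest falls. KRT15, a keratin of basal cells, fell, with 10.56, 10.34, 10.66 and 10.43 with 1,25(OH)2D and 12.31, 12.14, 12.63 and 12.60 in vehicle (-1.92 ± 0.13, adjusted p = 9.38e-05). Of the other 6 tested basal markers only ITGB4 passed (-0.37). ITGB4 lost its call when any 1 array other than 1,25(OH)2D replicate 2 was left out. Among kallikreins and protease inhibitors (26 tested of 37) 6 rose and 3 fell, where 5.13% of all genes rose and 6.87% fell. Without vehicle replicate 4, 3 rose. CST6, an inhibitor of cysteine proteases, rose by 3.33 ± 0.22 and SERPINB1, an inhibitor of neutrophil elastase, by 1.11 ± 0.043, while SPINK6, a kallikrein inhibitor, fell by 2.18 on the log2 scale.

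Metabolic and transport genes changed in small groups. CA2, a carbonic anhydrase, was at 10.95 to 11.06 with 1,25(OH)2D and at 8.74 to 9.20 in vehicle (2.01 ± 0.097), and CA12 rose by 1.00 and glutamate dehydrogenase GLUD1 by 0.59. ARG2, the mitochondrial arginase, fell by 0.94 on the log2 scale. The sterol exporters ABCA1 (-1.49 ± 0.16) and ABCG1 (-1.15 ± 0.12) and the lipid carrier APOE (-0.66 ± 0.074) fell, while FABP5, a fatty acid binding protein (0.81), and ACSL1, which activates fatty acids (0.66), rose. Of 22 tested glycolysis genes 3 rose, where 5.13% of all genes did, and 0 fell. The rises were the hexokinases HK2 (0.85, adjusted p = 0.0302) and HK1 (0.25) and the phosphofructokinase PFKP (0.54), and GAPDH was at 15.44 and 15.46. HK2 lost its call without any 1 of the 1,25(OH)2D arrays and without vehicle replicate 3 or 4. Over the alternatives tried, 2 to 6 of the glycolysis genes rose and 0 to 1 fell. In sterol and fatty acid synthesis 2 of 22 rose, LSS (0.31) and ACSS2 (0.23), where 5.13% of all genes did. ACSS2 lost its call when any 1 array other than 1,25(OH)2D replicate 2 was left out, and 0 of the 22 rose with the spread of all 24 arrays.

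Of 41 tested mitosis genes (41 members) 12 fell, where 6.87% of all genes did, and 0 rose. In treated cells 40 of the 41 were lower, with a median of -0.25. NDC80 (-0.62), TTK (-0.62), KIF11 (-0.58) and TOP2A (-0.54), which act at kinetochores, the spindle and the condensing chromosomes, led them, and UBE2C and PTTG1 did not pass. With a spread estimated from all 24 arrays only 1 of the 41 fell, while 6 fell without vehicle replicate 2 and 7 without vehicle replicate 4. Of 41 tested DNA replication genes (42 members) 4 fell, where 6.87% of all genes did, and 0 rose. The farthest was TYMS (-0.30), and 0 fell with the spread of all 24 arrays or without 1,25(OH)2D replicate 3 or 4 or vehicle replicate 2, 3 or 4. PCNA was at 13.31 with 1,25(OH)2D and 13.45 in vehicle (adjusted p = 0.159). Among G1 regulators (24 tested of 26) GADD45A (0.47), CCNE1 (0.38) and E2F1 (0.27) rose and RBL2, a pocket protein, fell (-0.23). Over all genes 5.13% rose and 6.87% fell. CDKN1A, the inhibitor p21, was at 9.01 with 1,25(OH)2D and 8.97 in vehicle (adjusted p = 0.779), and 0 of 17 tested p53 target genes passed limma's test, with 1 higher and 2 lower at an unadjusted p under 0.05 and 1 lower by SAM, the permutation method of the study. In a bulk culture, fewer cells in a state and less RNA per cell cannot be told apart.

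Wnt and Notch genes gave 3 rises and 7 falls among 25 tested (36 members), where 5.13% of all genes rose and 6.87% fell. Without 1,25(OH)2D replicate 3 or vehicle replicate 2 there was 1 rise. Besides DNER, the secreted Wnt antagonist DKK1 rose by 0.79 ± 0.16 and the Notch target HES1 by 0.27 (adjusted p = 0.0425). HES1 lost its call when any 1 array other than 1,25(OH)2D replicate 1 was left out. The membrane Wnt inhibitor APCDD1 (-1.39 ± 0.19), the Notch ligand DLL1 (-0.99 ± 0.20), the repressor TCF7L1 (-0.75) and the glycosyltransferase LFNG (-0.63) fell, and JAG1 was at 11.54 with 1,25(OH)2D and 11.84 in vehicle (adjusted p = 0.0516). DLL1 lost its call without 1,25(OH)2D replicate 3 or 4 or vehicle replicate 3.

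The tight arrays also brought very small changes past the test, and 872 of the 1441 called genes were under 1.5-fold. Those with the smallest residual error included S100A2, a calcium-binding protein of basal cells, at 15.55 with 1,25(OH)2D and 15.32 in vehicle (0.23 ± 0.037, SE, adjusted p = 0.00798), and the actin bundler PLS3 at 12.05 and 12.44 (-0.39 ± 0.038, adjusted p = 7.27e-04). The RNA methyltransferase METTL3 rose by 0.19 and GLUL, glutamine synthetase, by 0.15 (adjusted p = 0.0438), and CNP fell by 0.15 on the log2 scale (adjusted p = 0.0473). GLUL and CNP no longer passed when each array was centred on its median.

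Most of the 48 h response was not called earlier. The 3 time points share no arrays, and 284 genes rose (2.36%) and 125 fell (1.04%) at 6 h, 39 rose (0.325%) and 23 fell (0.192%) at 24 h. Of the 616 genes that rose at 48 h, 118 had risen at 6 h (19.2% of the 48 h list and 41.5% of the 6 h list) and 37 at 24 h (6.01% and 94.9%). Of the 825 that fell, 52 had fallen at 6 h (6.30% and 41.6%) and 21 at 24 h (2.55% and 91.3%). The arrays with 1,25(OH)2D at 24 h had the widest spread, and a gene missing from the 24 h calls is not shown to be unchanged there. The genes that rose at 48 h had median differences of 0.09, 0.41 and 0.50 at the 3 times in order, and those that fell had -0.10, -0.45 and -0.48. When the response at 48 h was set against the response at 6 h in a model of all 24 arrays, it was higher in 177 genes (1.47%) and lower in 268 (2.23%).

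Genes that were late, early or reversed could be named from this test. DNER differed by -0.12, 2.71 and 3.95 at 6, 24 and 48 h (48 h minus 6 h 4.07, adjusted p = 3.23e-08), and AKR1C3 by 0.41, 2.89 and 3.18 (adjusted p = 1.25e-06). GDPD3 had 0.17, 0.79 and 3.07 and CAMP 0.11, 1.27 and 2.84, and neither passed at 6 or 24 h. CYP24A1 and CD14 ran the other way, with 10.08, 6.10 and 5.99 for CYP24A1 and 7.80, 4.75 and 4.76 for CD14 (48 h minus 6 h -4.09 and -3.04). Opposite calls at 6 and 48 h were few. GLUL and LYSMD4 fell at 6 h, as 1.04% of all genes did, and were among the 616 that rose at 48 h. A rise at 6 h, called in 2.36% of all genes, came before the fall in 8 of the 825 genes that fell at 48 h. IGFBP3 had 1.55 (adjusted p = 0.0131), -1.34 (adjusted p = 0.0338) and -2.58 at 6, 24 and 48 h, passing the test in opposite directions. ABCA1 had 2.95 at 6 h and -1.49 at 48 h, and CYP1A1, which oxidizes polycyclic hydrocarbons, 2.51 and -1.63 (48 h minus 6 h -4.43 and -4.14). Among interferon-stimulated genes none passed at 6 h (median -0.04) and 1 at 24 h (median -0.60), and in 22 of the 52 the response was lower at 48 h by this test.

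**Figure D4:**
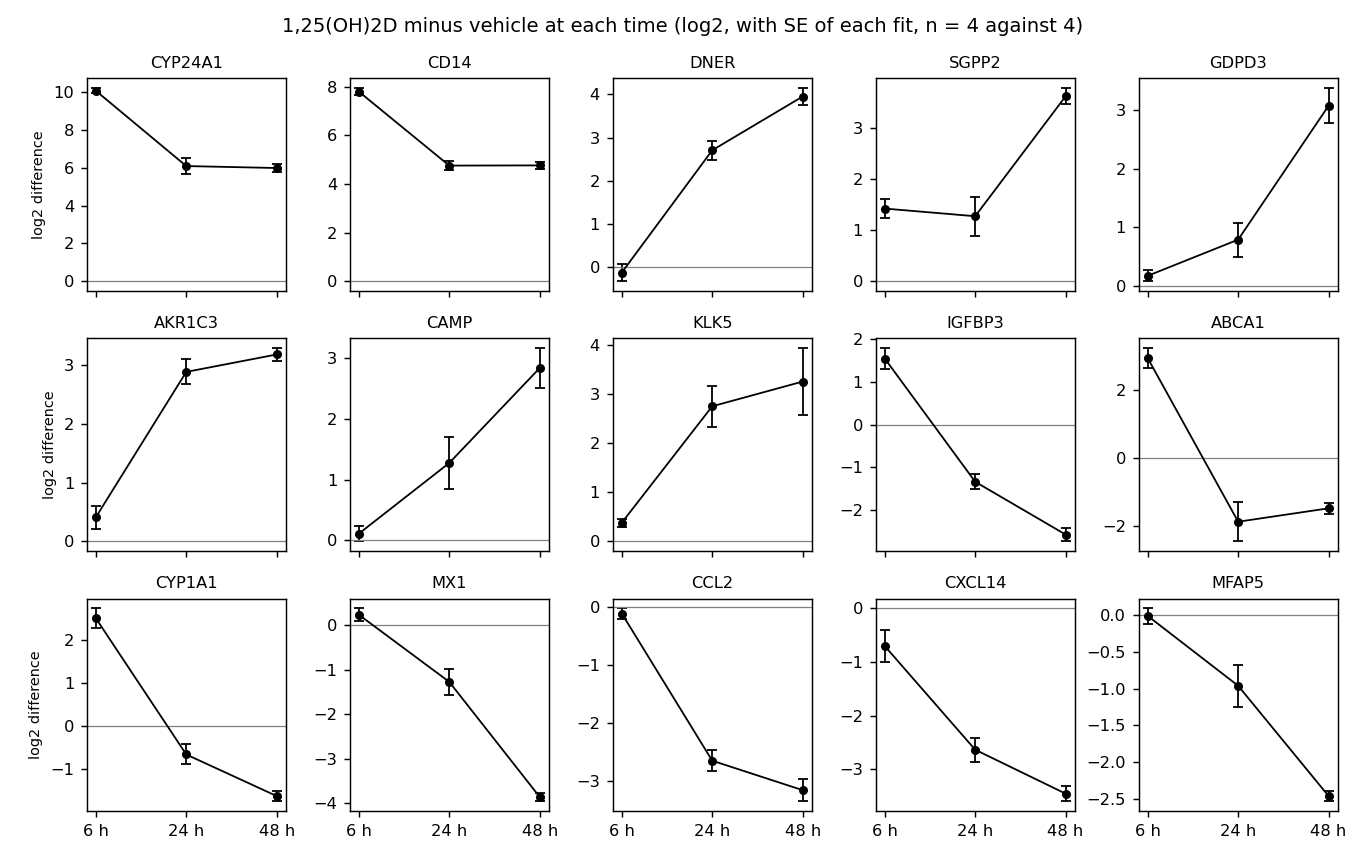
Log2 difference of 1,25(OH)2D minus vehicle (y axes, with a scale for each gene) at 6, 24 and 48 h for 15 genes, from the fit at each time with its SE (4 arrays against 4). CYP24A1 and CD14 are highest at 6 h, DNER, GDPD3 and CAMP are highest at 48 h, and IGFBP3, ABCA1 and CYP1A1 change sign.

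Between 24 and 48 h the response changed in 6 genes (0.05%). SGPP2, GDPD3, the sodium channel subunit SCNN1B and LBH, a transcription cofactor, were higher, and MX1 and MFAP5 were lower. The response of 48 h minus the response of 24 h was 2.35 for SGPP2 (adjusted p = 0.0272), 2.28 for GDPD3, 1.88 for SCNN1B and 1.72 for LBH (adjusted p = 3.80e-04). It was -2.59 for MX1 (adjusted p = 3.80e-04) and -1.5 for MFAP5 (adjusted p = 0.0458). Of the 6, only LBH kept its call whichever replicate number was left out. Without replicate 1 the test called 163 probe sets in place of 9.

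Treated and vehicle cultures also changed between 24 and 48 h. From 24 to 48 h the median change of the 52 genes was -0.34 with 1,25(OH)2D and 0.17 in vehicle, with 46 lower in treated cultures and 39 higher in vehicle. By limma's test 6 fell with 1,25(OH)2D and 0 rose, and in vehicle 0 changed. Over all genes 89 rose (0.741%) and 203 fell (1.69%) from 24 to 48 h with 1,25(OH)2D, against 20 (0.167%) and 31 (0.258%) in vehicle. MX1 averaged 8.94, 8.61 and 6.45 with 1,25(OH)2D at 6, 24 and 48 h and 8.70, 9.88 and 10.31 in vehicle. IFI44L averaged 3.45, 3.42 and 2.92 with 1,25(OH)2D and 3.65, 5.74 and 6.80 in vehicle. IFNK averaged 6.65, 4.40 and 3.14 with 1,25(OH)2D and 6.93, 5.91 and 6.36 in vehicle. These changes use the same 48 h arrays as the comparison at 48 h, and are given for each group by itself.

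**Figure D5:**
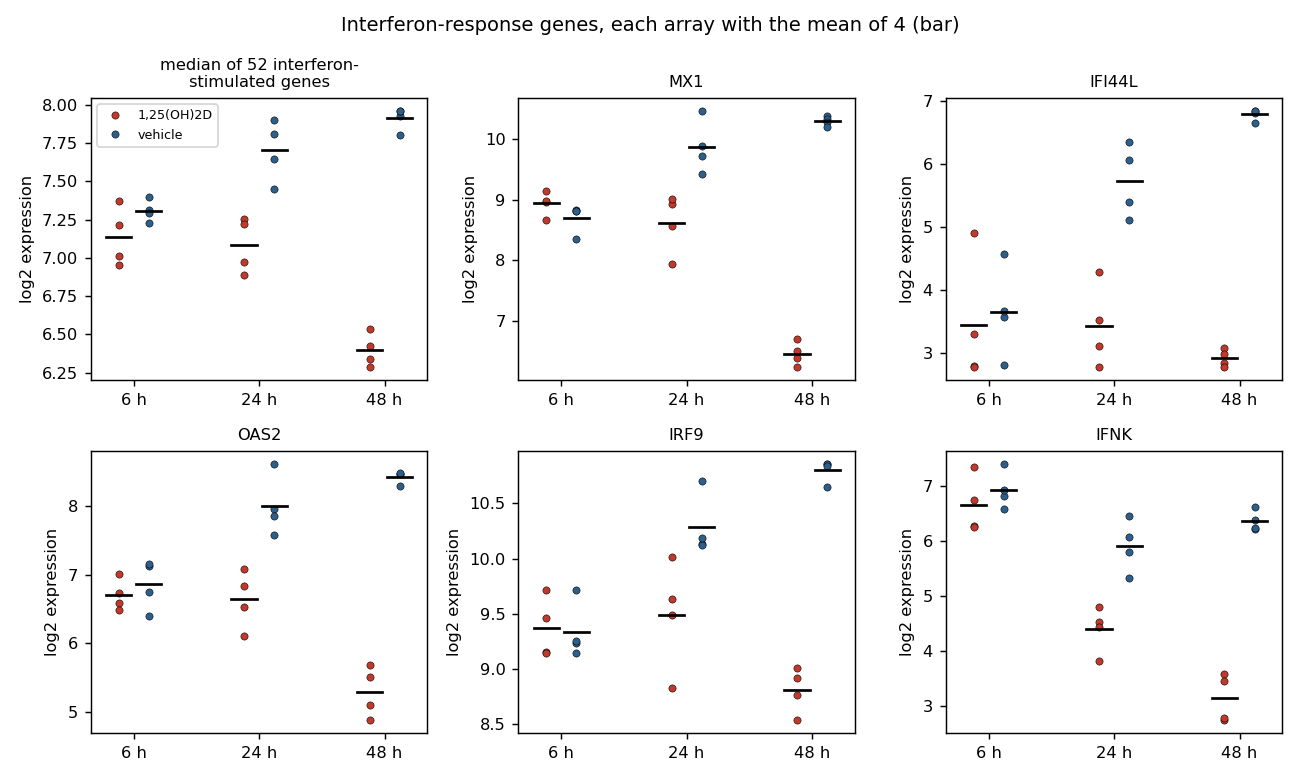
Log2 expression (y axes, with a scale for each panel) at 6, 24 and 48 h, with each array as a point, 1,25(OH)2D in red on the left and vehicle in blue on the right, and the mean of 4 arrays as a bar; the first panel gives the median of the 52 interferon-stimulated genes in each array. At 48 h the list median is 6.29 to 6.54 with 1,25(OH)2D and 7.80 to 7.96 in vehicle.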

How the data were processed

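RNA of RWPE1 cultures was hybridized to Affymetrix U133 Plus 2.0 arrays, 4 for each of 6 groups. The deposited values are log2 expression from gcRMA, which corrects background by probe sequence, run by the authors on the 24 arrays at once, with 1 value per probe set (its version is not given in the sources used here). No present call filter was applied to the 54613 probe sets other than controls. Because arrays give no counts, the number of arrays limits the precision. The size of a difference in dim genes depends on the background correction and is uncertain.

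Here, probe sets were ranked by the value that at least 3 of the 4 arrays reached in their highest group, and the 26000 brightest were kept (lowest value 3.20). The 4 arrays with 1,25(OH)2D and the 4 vehicle arrays of 48 h were compared with limma 3.58.1 (R 4.3.3, lmFit and eBayes), with p-values adjusted by the Benjamini-Hochberg method over all 26000 and a threshold of 0.05. Effects at different times and changes from 24 to 48 h came from a model in which the 24 arrays had 6 group means. A gene is its brightest kept probe set with a single symbol in the platform annotation (21891 probe sets, 12010 genes). Probe sets with several symbols (1087) or none (3022) were not named. SAM, the test named in the study's methods, was written anew, with a modified t statistic, all relabellings of 4 against 4 arrays and a false discovery rate of 5%, and served as an alternative. The scripts were tested on simulated data.

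Named genes were the 15 largest rises and falls whose groups did not overlap, up to 4 called members in each direction and the 2 brightest members not past the test in each gene list, markers of cell types, genes of prior interest, the smallest precise changes and the genes whose effects differed most between times. Not every gene that meets the rule is described. The gene groups and lists were chosen with earlier results of these data known. Nothing beyond the titles says how the replicate cultures were separated, so the p-values measure the spread between these arrays. Alternatives were SAM, other filters, a second quantile normalization, median centring, a linear offset of 32, a trended robust eBayes, a block for the replicate number, omission of each array and the 24-array model. Promoter windows were RefSeq sequences of GRCh38.p14.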

Additional observations from a re-analysis of the deposited data

Results flagged for a closer look

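Of 324 groups of 4 arrays behind the named genes at 48 h, 24 held an array whose gap to the nearest of the others was larger, relative to the group's range, than Dixon's 95% critical value, and chance marks about 1 in 20 groups. With 1,25(OH)2D it was replicate 2 in all 8 cases, the array that also lay farthest from its group over all probe sets. The genes, with log2 values, were AKR1C1 (11.52, others 11.80 to 11.85), CD14 (7.64, others 8.15 to 8.19), DDX60 (4.91, others 5.41 to 5.47), DENND6B (8.24, others 9.24 to 9.39), GADD45A (11.49, others 11.26 to 11.30), IGFBP4 (5.66, others 4.92 to 4.99), KDR (3.83, others 3.60 to 3.63) and SEMA3C (9.60, others 9.83 to 9.87). In vehicle the array was replicate 1 for 7 genes, DNER (4.67, others 4.33 to 4.37), DTX3L (9.88, others 9.58 to 9.63), IFI44L (6.67, others 6.82 to 6.85), IGFBP4 (5.94, others 6.26 to 6.29), KRT8 (12.78, others 13.09 to 13.13), MAVS (10.01, others 9.86 to 9.87) and PML (9.30, others 9.14 to 9.16). It was replicate 4 for AKR1C3 (3.05, others 3.07 to 3.08), CDA (5.23, others 4.67 to 4.69), IRF9 (10.65, others 10.84 to 10.86), OAS2 (8.30, others 8.47 to 8.48) and SPINK6 (8.86, others 8.41 to 8.49). It was replicate 2 for CAMP (2.81, others 2.90 to 2.91), HK1 (12.56, others 12.48 to 12.49) and SCEL (8.11, others 7.73 to 7.79) and replicate 3 for CYP27B1 (8.04, others 8.29 to 8.32). In AKR1C3 and CAMP the whole range of the vehicle arrays was under 0.10 on the log2 scale.

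Effects differed between times in the fit of all 24 arrays, at an adjusted p under 0.05, for all 20 genes examined at every time. Most of these genes were named because their effects differed most between times, so the count says nothing about other genes. The response of 48 h minus the response of 6 h was positive on the log2 scale for DNER (4.07), GDPD3 (2.90), KLK5 (2.88), AKR1C3 (2.77), CAMP (2.72), SGPP2 (2.20), SCNN1B (2.00) and LBH (0.95). It was negative for ABCA1 (-4.43), CYP1A1 (-4.14), IGFBP3 (-4.13), MX1 (-4.09), CYP24A1 (-4.09), IFI44L (-3.67), CCL2 (-3.05), CD14 (-3.04), OAS2 (-2.99), IFNK (-2.94), CXCL14 (-2.75) and MFAP5 (-2.45). Against 24 h it was positive for SGPP2 (2.35), GDPD3 (2.28), SCNN1B (1.88) and LBH (1.72) and negative for MX1 (-2.59) and MFAP5 (-1.5), and of these only LBH passed whichever replicate number was left out.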

How the results depend on the processing

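None of the 134 called genes named here changed sign under the alternatives tried. Of these, 86 kept their call under every alternative in which they were tested. A stricter filter, which kept 15000 probe sets, tested only 145 of the 162 named genes. A dim gene can therefore be among the 86 without a test there. ADAR, DKK1, E2F1, NDC80, TTK and VIM were among those that lost their call when some single arrays were left out. Counts depended on the spread assumed. Against 2505 probe sets (1043 rose, 1462 fell) and 1441 genes, all 24 arrays gave 975 (450 and 525) and 581 genes (279 and 302), and no filter 1644 (932 fell, with 537 genes that fell). With the replicate number as a block there were 1353 probe sets (562 and 791) and 780 genes (342 and 438), and 25 named genes no longer passed. Same-numbered arrays did not deviate together (correlations -0.0604, -0.118, -0.0792 and -0.00892). Whether cultures of the same number were handled together is not stated, and these values cannot decide it. SAM called 3537 probe sets and 1998 genes. An offset of 32 left 634 of 994 probe sets past 1.5-fold and a median of -0.84 for interferon-stimulated genes. Leaving out 1 array gave 1609 (vehicle replicate 2) to 3539 (1,25(OH)2D replicate 2) probe sets, 660 to 1483 that rose and 926 to 2056 that fell, and 943 to 1988 genes, 411 to 891 that rose and 522 to 1097 that fell. 1,25(OH)2D replicate 3 gave 1615 probe sets. Interferon-stimulated genes that rose numbered 0 to 1, the 1 being TYMP without 1,25(OH)2D replicate 2, and those that fell 32 to 44 over all alternatives. The fall of mitosis genes ranged from 1 to 18 and that of MHC class I genes from 4 to 14. Between times, probe sets whose effect differed from 6 h numbered 727, 466 after median centring and 325 to 602 without a replicate number. Those that differed from 24 h numbered 9, 3 with no filter, 5 with the replicate block and 1 to 163 without a replicate number. Changes from 24 to 48 h ranged from 64 to 2677 with 1,25(OH)2D (496 in all arrays) and from 13 to 171 in vehicle (82), in each case highest without replicate 1. Within-group spread at 48 h was smaller than at 6 and 24 h, so counts of calls are not comparable between times. The causes of these differences were not tested.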
